A study of Mus musculus with 4 samples.

Results

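Arterial endothelial cells line the vessels that carry blood into the spinal cord, and 1006 of them were found among 5206 endothelial cells and 20454 cells kept in all. They were chosen from the counts themselves. A cell was kept if it had 500 or more unique molecular identifiers (UMIs, counts of single RNA molecules) and 200 or more genes, with no more than 15% of its UMIs mitochondrial. It was taken as endothelial with at least 4 UMIs of Cldn5, Flt1 and Pecam1 together, fewer than 3 UMIs of the mural genes Kcnj8, Abcc9, Pdgfrb, Acta2 and Myh11, and less than 0.5% of its UMIs from C1qa, C1qb and C1qc. It was called arterial with at least 3 UMIs of Gkn3, Sema3g, Hey1 and Egfl8 together, and more of these than of the venous genes Slc38a5, Il1r1, Ackr1 and Vcam1. Cells with at most 1 UMI of either set are called capillary here (2107 cells), and cells with at least 3 venous UMIs, and more of these than arterial ones, are called venous (1351 cells). The remaining 742 endothelial cells were intermediate.

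The cells came from mouse spinal cords profiled by droplet-based sequencing of the 3' ends of transcripts. Each of the 4 groups was 1 library, made from the cords of 2 mice pooled after saline perfusion, enzymatic dissociation at a raised temperature and bead removal of myelin. The groups were 30-week P301S hom CD8 KO, 33-week P301S hom CD8 WT, 30-week P301S hom CD8 WT and 30-week P301S neg CD8 WT, where hom and neg stand for homozygous and negative. P301S mice, which express human tau with a disease mutation from a transgene, are a model of tauopathy; its promoter, the CD8 allele and the sex of the animals are not given in the sources used here. In that order the arterial cells numbered 226, 174, 195 and 411, with 1939667, 1479549, 1821161 and 4097170 UMIs in sum. With 1 library per group no test between groups was possible, and intervals on such values are 95% intervals of counting error only. The 4 libraries do replicate the difference between arterial cells and the other endothelial zones, and there a test was made. Before the results, 2 facts on the libraries have to be given. Cd8a RNA was found in endothelial cells of the library labelled CD8 KO and not in arterial, capillary or venous cells of the CD8 WT libraries. What this means for the allele is not known, so CD8 KO stands below only for the library so labelled. The male cells of P301S neg stood apart in interferon and heat shock genes.

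In arteries the endothelium meets the highest pressure and flow, lies on elastic matrix and smooth muscle, and is specified by vascular endothelial growth factor and Notch signals acting with SoxF transcription factors. It passes dilator and constrictor signals to the muscle through nitric oxide, endothelin and gap junctions. Along the brain and cord vasculature its expression program grades into that of capillaries, which carry most of the transport systems of the blood-brain barrier, and then into that of veins, where leukocytes adhere.

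Because the rule asks for Gkn3, Sema3g, Hey1 and Egfl8, their levels describe the choice and were not tested. Levels are UMIs of the summed cells scaled to a total of 1000000 (CPM). Gkn3, a secreted gastrokine that marks arteries of the mouse brain (chr6:87383256-87388935, minus strand, GRCm38), stood at 352, 334, 472 and 586 CPM in arterial cells of P301S hom CD8 KO, 33-week P301S hom CD8 WT, 30-week P301S hom CD8 WT and P301S neg, the order kept for 4 values below. Sema3g, a secreted class 3 semaphorin, stood at 264, 308, 287 and 241 CPM, and Hey1, a transcription factor induced by Notch, at 231, 248, 223 and 335 CPM. Egfl8, an EGF-domain protein, stood at 152, 137, 125 and 212 CPM. All 4 genes had a UMI in 249 arterial cells, 3 of them in 289, 2 in 360 and 1 in 108. At the threshold, the 199 cells with exactly 3 arterial UMIs had mean levels over the libraries of 30.0 CPM of Gkn3 and 172 CPM of Sema3g, and the 286 endothelial cells left outside with 2 had 27.01 and 145 CPM.

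The label was checked on Alpl and Fabp4, which the rule does not use, and they gave opposite answers. Alpl, the tissue-nonspecific alkaline phosphatase on the surface of brain arterial endothelium (chr4:137741733-137796384, minus strand, GRCm38), stood at 313, 300, 310 and 340 CPM in arterial cells, against 93.5, 106, 81.2 and 84.4 CPM in capillary cells and 35.6, 29.4, 37.5 and 32.7 CPM in venous cells. No capillary or venous value reached the arterial ones. Alpl had a UMI in 78.0% of arterial cells, and with each cell thinned to 2000 UMIs in 46.1%, against 15.6% of capillary, 5.64% of venous and 1.84% of non-endothelial cells.

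Fabp4, a fatty acid carrier of peripheral endothelium, went against the label. It had a UMI in 19 of the 1006 arterial cells, and 1081 of its 1100 UMIs lay in 7 cells, none in P301S hom CD8 KO, 1 in 33-week P301S hom CD8 WT and 3 each in 30-week P301S hom CD8 WT and P301S neg. Gpihbp1 (126 UMIs) and Lpl (59 UMIs), which release fatty acids from lipoproteins at the vessel wall, and Cd36 (71 UMIs), which takes them up, each had a UMI in 4 of those 7 cells. Summed, the 7 cells held 798 CPM of the barrier glucose carrier Slc2a1, from 2 cells, and 47.9 CPM of the anion carrier Slco1a4, from 1 cell, against 4749 and 1308 CPM in the other 999 arterial cells. So the Fabp4 signal came from a handful of cells, and the remaining cells had 2.05 CPM of Fabp4.

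Arterial cells made up 17.1% of endothelial cells (95% interval 15.1 to 19.3) in P301S hom CD8 KO, 16.6% (14.4 to 18.96) in 33-week P301S hom CD8 WT, 19.3% (16.9 to 21.9) in 30-week P301S hom CD8 WT and 22.5% (20.6 to 24.5) in P301S neg. The interval of P301S neg lay above those of P301S hom CD8 KO and 33-week P301S hom CD8 WT and overlapped that of 30-week P301S hom CD8 WT; the 3 P301S hom intervals overlapped each other. With every cell thinned to 2000 UMIs the shares were 7.72% (6.24 to 9.41), 5.52% (4.12 to 7.21), 6.96% (5.40 to 8.80) and 10.3% (8.88 to 11.9). P301S neg stayed highest while the P301S hom libraries changed places. The thinned interval of P301S neg overlapped that of P301S hom CD8 KO and lay above those of both P301S hom CD8 WT libraries. Cells under 2000 UMIs, 166, 144, 91 and 166 endothelial cells, were left out. The spread between animals is unknown, since the share was measured once per group. The arterial genes of the rule were also highest in the non-endothelial cells of P301S neg. Gkn3 stood there at 21.0, 17.2, 17.0 and 101 CPM and Egfl8 at 11.7, 11.6, 6.01 and 38.1 CPM. The general endothelial gene Cldn5 stood there at 169, 117, 111 and 463 CPM. Dissociation and bead treatment can lose cell types unequally. The part of such losses, and of endothelial RNA outside endothelial cells, in these shares was not tested.

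**Figure D1:**
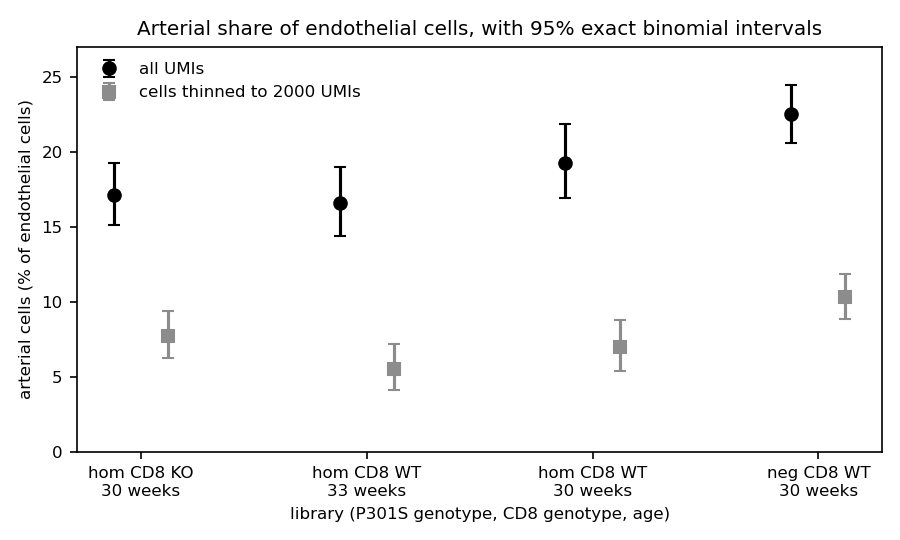
Arterial cells as a percentage of endothelial cells (vertical axis) in the 4 libraries (horizontal axis), for all cells and with each cell thinned to 2000 UMIs. Bars on the points are 95% exact binomial intervals for counting error; P301S neg had the highest share on both scales, 22.5% and 10.3%.

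Set against capillary cells, arterial cells were higher in genes of vessel wall matrix, growth factors and gap junctions and lower in the carbonic anhydrase gene Car4. Differences were tested with edgeR's quasi-likelihood test on summed UMIs with the library as a block, over 10020 genes outside the rule, with Benjamini-Hochberg adjustment at 0.05. Against capillary cells 9.53% of genes tested were higher and 7.88% lower, and against venous cells 12.2% were higher and 11.7% lower. Of the 10020 genes, 703 were higher than in both other zones and 535 lower than in both. The median of all fitted log2 differences was 0.00 in each comparison.

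Mgp, matrix Gla protein, an inhibitor of calcification in artery walls (chr6:136872435-136875823, minus strand, GRCm38), was the most abundant of the strongly arterial genes. It stood at 713, 880, 789 and 562 CPM in arterial cells, against 58.8, 36.7, 61.5 and 23.1 CPM in capillary cells, a log2 difference of 4.04 ± 0.16 (SE, n = 4 libraries; edgeR adjusted p = 1.9e-10). The 2 zones did not overlap in any library. Fibroblasts also make Mgp, so it stands in that list too: the 9 fibroblast genes summed to 581 to 899 CPM in arterial cells, almost all of it Mgp. Slc47a1 was at 0 in the 3 P301S hom libraries but not in P301S neg, where only Col3a1 was at 0. Lum and Igfbp2 were also at 0 in P301S hom CD8 KO, and Col1a1 and Col3a1 in 33-week P301S hom CD8 WT. Dcn, Col1a2 and Pdgfra had UMIs in every library. The part of fibroblast RNA in the Mgp level was not tested.

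Vegfc, a growth factor for lymphatic and blood endothelium, stood at 77.3, 87.9, 82.9 and 154 CPM in arterial cells and averaged 6.002 ± 2.93 CPM in capillary cells (SD, n = 4), a log2 difference of 4.06 ± 0.23 (SE, edgeR adjusted p = 8.4e-09). Gja4, the gap junction protein connexin 37, stood at 55.2, 43.3, 69.2 and 54.4 CPM in arterial cells and averaged 3.14 ± 1.66 CPM in capillary cells (log2 difference 4.03 ± 0.26, adjusted p = 4.1e-08). Every arterial library lay above every capillary library for both genes. Vegfc was highest in P301S neg.

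The other genes highest over capillary cells were Col18a1, a basement membrane collagen (log2 difference 3.90), Igfbp3, a binding protein of insulin-like growth factors (3.63), the elastic fibre proteins Fbln2 (3.596) and Eln (2.82), the kinase Bmx (2.97), Tmem100, a target of ALK1 signalling (2.88), the chaperone Clu (2.53), Stc1 (2.37) and Cdh13 (2.35). All of these passed the same test. Lower than in capillary cells was Car4, a membrane carbonic anhydrase of capillaries, at 184 ± 32.5 CPM in arterial cells and 966 ± 83.4 CPM in capillary cells (SD, n = 4; log2 difference −2.44 ± 0.09, SE). Cpe, Ankrd37, Fmo2, Tiam1, Ndnf, Bok, Smox, Gatm, Ctla2a and Slc16a1, the monocarboxylate carrier, followed with log2 differences of −1.65 to −1.12.

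Against venous cells the genes that led were Lypd1 (log2 difference 4.81), Fbln2 (4.59), Gja4 (4.58), Igfbp3 (4.55), Tmem100 (4.40), Bmx (4.03), Clu (3.99) and Vegfc (3.94). Lypd1, a regulator of nicotinic receptors, stood at 46.9, 90.6, 89.0 and 82.3 CPM in arterial cells and averaged 2.41 ± 0.71 CPM in venous cells (SD, n = 4; edgeR adjusted p = 3.1e-11). Among the lowest were Flrt2 (−4.46), Car14 (−2.98), the Wnt ligand Wnt5a (−2.97), Car4 (−2.79), Fam13a (−2.65), the leukocyte adhesion molecule Icam1 (−2.52) and Cpe (−2.38). Icam1 stood at 191, 238, 149 and 199 CPM in arterial cells, against 900, 844, 1330 and 1319 CPM in venous cells, with no overlap.

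**Figure D2:**
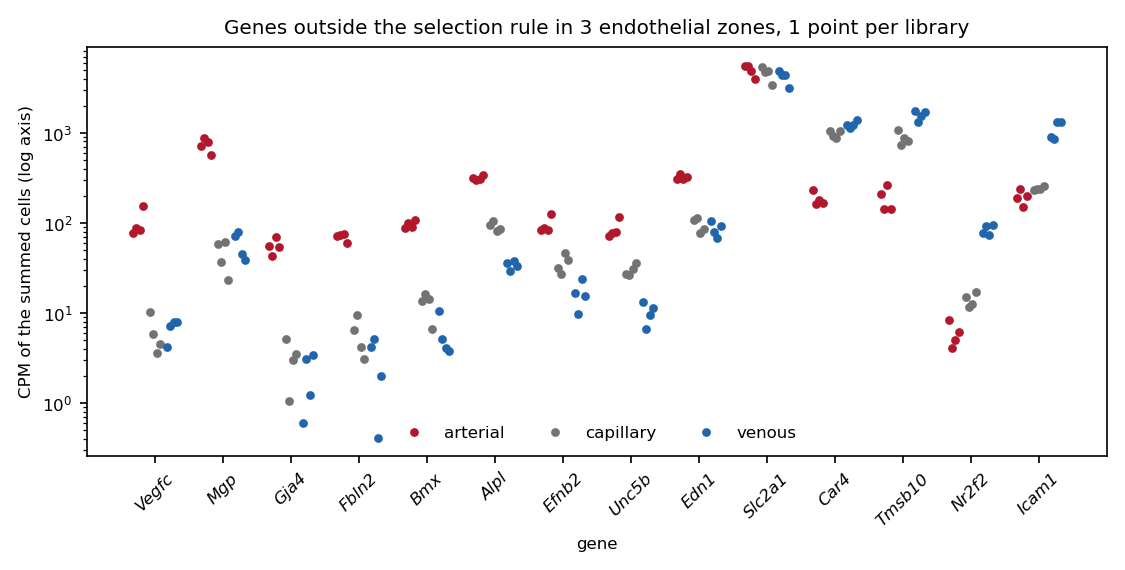
Level of genes outside the selection rule (vertical axis, CPM of the summed cells, log axis) in arterial, capillary and venous endothelial cells, with 1 point per library and values under 0.3 CPM drawn at 0.3. Mgp, at 562 to 880 CPM in arterial cells, stood above every capillary and venous library.

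The lists fixed for this work put these genes in context, although they were chosen with earlier results of these data known. Of 27 further arterial genes tested, 25 were higher in arterial than in capillary cells and none lower (median log2 difference 1.49), and all 27 were higher than in venous cells (median 1.95). The 2 that did not pass against capillary cells were Fabp4 and the chemokine Cxcl12, which stood at 1433, 1348, 1482 and 1590 CPM in arterial cells and 1358, 1226, 1674 and 1847 CPM in capillary cells. Edn1, the vasoconstrictor endothelin 1, averaged 318 ± 19.2 CPM in arterial cells and 95.6 ± 17.2 CPM in capillary cells (SD, n = 4; log2 difference 1.71, edgeR adjusted p = 1.1e-08), and Stmn2, a tubulin-binding stathmin, 487 ± 29.0 and 146 ± 19.1 CPM (1.72, adjusted p = 9.1e-09).

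Of 16 Notch pathway genes tested outside the rule, 10 were higher and 1 lower than in capillary cells (median 0.51), and 10 were higher and 5 lower than in venous cells (median 0.68). Among ligands, Dll4 averaged 149 ± 35.8 CPM in arterial cells and 85.7 ± 7.88 CPM in capillary cells (log2 difference 0.77), and Jag2 262 ± 29.7 and 139 ± 23.7 CPM (0.88). Of the receptors, Notch1 averaged 308 ± 17.7 and 194 ± 24.4 CPM (0.63) and Notch4 112 ± 9.44 and 77.0 ± 12.05 CPM (0.51). Efnb2 and Unc5b, surface guidance proteins of arteries that lie downstream of Notch, were higher by 1.39 and 1.49. The glycosyltransferase Mfng, which modifies Notch receptors, was lower by a log2 difference of −0.30, and the target Hes1 did not pass against capillary cells (395 ± 20.9 and 433 ± 69.2 CPM; adjusted p = 0.087).

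Matrix genes went mostly one way: of 18 tested, 14 were higher than in capillary cells and 1, the basement membrane linker Nid1, was lower (median 0.57), and against venous cells 13 were higher and 2 lower. Timp3, a matrix-bound protease inhibitor, averaged 1856 ± 313 CPM in arterial cells and 781 ± 106 CPM in capillary cells (SD, n = 4; log2 difference 1.20, edgeR adjusted p = 3.6e-10). Fbln5, an elastic fibre organiser, stood at 66.0, 46.6, 42.8 and 27.3 CPM in arterial cells, against 2.31, 0, 1.19 and 0 CPM in capillary cells. Its UMIs in arterial cells came from 74 of the 1006 cells.

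Of 17 genes of vasomotor tone and gap junctions, 12 were higher and 2 (Cav2 and Gjc1) lower than in capillary cells (median 0.66), and 9 were higher and 1 lower than in venous cells. Nos3, endothelial nitric oxide synthase, averaged 200 ± 16.4 CPM in arterial cells and 145 ± 19.1 CPM in capillary cells (log2 difference 0.43), the calcium channel Trpv4 59.2 ± 15.7 and 20.1 ± 8.64 CPM (1.54), and Kcnj2, an inward rectifier potassium channel, 14.3 ± 3.48 and 4.13 ± 0.67 CPM (1.81). Genes known to respond to shear stress were split, with 6 of 16 higher and 4 lower than in capillary cells. Klf2, a flow-induced transcription factor, passed in neither comparison, with 5352 ± 348 CPM in arterial, 5082 ± 241 in capillary and 5426 ± 60.4 in venous cells.

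Barrier genes showed no shared direction. Of 29 transport and junction genes, 8 were higher and 8 lower than in capillary cells (median 0.02), and 10 were higher and 12 lower than in venous cells (median −0.06). Slc2a1 averaged 4990 ± 763 CPM in arterial cells and 4569 ± 849 CPM in capillary cells and did not pass (edgeR adjusted p = 0.082), while Tfrc, the transferrin receptor, averaged 52.8 ± 2.56 and 104 ± 14.6 CPM (log2 difference −1.03, adjusted p = 1.5e-06). Of 16 capillary genes, 11 were lower and 2 higher than in capillary cells. Of 14 venous genes tested outside the rule, 11 were lower and 2 higher than in venous cells (median −1.96), with Nr2f2, the transcription factor of venous identity, at a mean of 5.84 CPM in arterial and 84.5 CPM in venous cells.

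Of 21 interferon gamma response genes tested, 11 were higher and none lower than in capillary cells (median 0.27), and 7 were higher and 2 lower than in venous cells (0.24). Of 24 type I interferon genes, 9 were higher and 1 lower than in capillary cells (0.19), and 17 were higher and 1 lower than in venous cells (0.49). Of 18 MHC class I genes, 11 were higher than in capillary cells (0.29) and 3 than in venous cells (0.14), and none was lower in either comparison. Male cells of P301S neg stood above its female cells in the interferon gamma list in each zone. The median log2 ratio was 2.11 in arterial, 1.54 in capillary and 1.26 in venous cells. The part of these male cells in the zone differences was not tested. Irf7, a transcription factor that amplifies the type I response, averaged 211 ± 64.4 CPM in arterial and 79.6 ± 11.8 CPM in venous cells (log2 difference 1.37). Adhesion and activation genes were lower than in venous cells for 8 of 14 and higher for 3, and lower than in capillary cells for 2 and higher for 4. Immediate early genes, which dissociation can induce, were lower than in capillary cells for 3 of 23 and higher for 7, and lower than in venous cells for 14 and higher for 1, with Egr1 at 1487 ± 111 CPM in arterial and 2385 ± 181 CPM in venous cells. Whether dissociation acted unequally on the zones was not tested. Against capillary cells, 8 of 18 angiogenic genes, 4 of 21 glucocorticoid-responsive genes, 2 of 14 lipid uptake genes, 2 of 17 heat shock chaperones and 1 of 15 clock genes were higher, and 4, 4, 2, 4 and 1 of them were lower. Against venous cells, 10, 3, 5, 0 and 3 members of these lists were higher and 4, 7, 2, 4 and 2 were lower. Over all genes tested, 9.53% were higher and 7.88% lower than in capillary cells. Against venous cells these shares were 12.2% and 11.7%. Small counts such as 2 of 14 or 1 of 15 lie near these shares and describe no trait of their lists.

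Within the arterial cells, levels ran along the count of the 4 genes of the rule, given here as a description without a test because that count chose the cells. Mean levels over the libraries are given for cells with 2 (outside the rule), 3, 4 to 5, 6 to 9, 10 to 19 and 20 or more arterial UMIs. Mgp stood at 88.05, 173, 294, 349, 661 and 2876 CPM in that order, Vegfc at 31.2, 31.4, 51.5, 85.5, 128 and 192 CPM, and Eln, the elastin gene, at 16.4, 14.4, 24.99, 43.0, 57.6 and 184 CPM. Edn1 stood at 189, 187, 210, 320, 346 and 505 CPM. These genes were therefore highest in the cells with the most arterial UMIs.

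Car4, Rgcc and Itm2a, of the capillary list, ran the other way over the same classes, though Car4 and Itm2a were higher still in venous than in capillary cells. Car4 stood at 478, 404, 264, 142, 105 and 65.3 CPM, Rgcc, a cell cycle regulator high in capillaries, at 1066, 1076, 868, 630, 454 and 312 CPM, and Itm2a, a membrane protein of barrier endothelium, at 3773, 3765, 3501, 2988, 2538 and 1800 CPM. Slc2a1, by contrast, stayed between 4844 and 5134 CPM, and Sox17, a SoxF transcription factor of arteries, between 384 and 435 CPM. Venous genes were split between the first class and the last. Vwf rose from 81.1 to 304 CPM and Vcam1, a gene of the rule, from 3.75 to 157 CPM. Tmsb10 fell from 424 to 183 CPM and Nr2f2 from 7.92 to 0.579 CPM. The class with 20 or more arterial UMIs held 138 cells, at least 15 per library, and the median UMIs per cell were 4897, 5757, 6136, 7311, 9491 and 13139 in the same order. Deeper cells reach a given count more readily, and the part of depth in these trends was not tested.

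**Figure D3:**
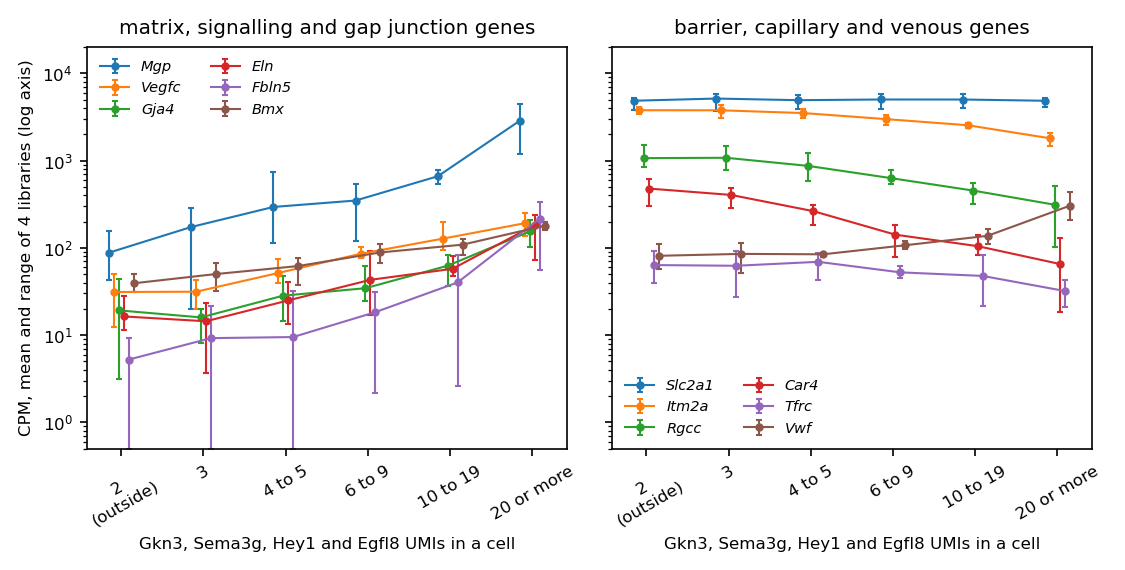
Level of arterial genes (left) and of capillary, venous and barrier genes (right) in endothelial cells grouped by their summed Gkn3, Sema3g, Hey1 and Egfl8 UMIs (horizontal axis). Points are means of the 4 libraries in CPM on a log axis; Mgp ran up to 2876 CPM in the class of 20 or more while Slc2a1 stayed near 5000 CPM.

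Marker genes of other cell types also had UMIs in the arterial sums. Microglia and macrophage genes summed to 1382 to 2354 CPM in arterial cells, against 13526 to 72828 CPM in the non-endothelial cells of the same libraries. Mural genes summed to 300 to 434 CPM against 1248 to 4052 CPM. Of the 14 mural genes only Cnn1 was at 0 in all 4 libraries, and Cspg4 was at 0 in P301S hom CD8 KO. Neutrophil, erythroid and B cell genes summed to 4235 to 12045 CPM, against 23176 to 128338 CPM. Of these 13 genes only the B cell gene Cd79b was at 0 in the 3 P301S hom libraries, and no member was in P301S neg. The B cell genes Cd79a and Igkc thus had UMIs in all 4 libraries. Astrocyte genes summed to 118 to 297 CPM against 267 to 362 CPM, oligodendrocyte and Schwann cell genes to 292 to 440 CPM against 351 to 640 CPM, and T cell genes to 1.22 to 130 CPM against 125 to 163 CPM, with Cd3e at 0 in all 4 libraries. Genes of lymphatic, sinusoidal and fenestrated endothelium summed to 669 to 808 CPM in arterial cells against 82.1 to 159 CPM. Most of that sum was Emcn, a surface sialomucin of endothelium, at 556 to 709 CPM in arterial and 28.8 to 103 CPM in non-endothelial cells. Flt4 stood at 50.5 to 71.7 CPM in arterial and 3.92 to 10.4 CPM in non-endothelial cells. Stab1 stood at 36.6 to 65.3 and 30.4 to 41.1 CPM in the same order. Stab2 was at 0 in all 4 libraries, and Prox1 and Pdpn were under 1 CPM. The part of these genes in the zone differences was not tested. Arterial cells had median depths of 6650.5, 7806.5, 8769 and 8041 UMIs, near those of venous cells (7262 to 7828) and deeper than capillary cells (3205 to 4075.5).

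Before the libraries are set side by side, the sex of their cells has to be given, because the pools differ in it. Cells with Xist UMIs and none from the Y-linked genes were called female and those with the reverse male. P301S hom CD8 KO held 147 male and no female arterial cells, 33-week P301S hom CD8 WT 74 male and 59 female, 30-week P301S hom CD8 WT no male and 183 female, and P301S neg 127 male and 198 female. The rest had neither signal, or both in 4 cells at 33 weeks and 14 cells of P301S neg. Sex and CD8 genotype therefore cannot be told apart at 30 weeks, and in the mixed pools sex and the individual mouse cannot be told apart.

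30-week P301S hom CD8 WT was set against P301S neg at the same age, 2 libraries that differ in the transgene and in the sex of their cells. Of 8642 genes with at least 50 UMIs in the pair, 61 (0.706%) were at least 2-fold higher and 140 (1.62%) at least 2-fold lower; with the highest cell of each gene left out, 39 were higher. The lower genes included 13 of 20 measured interferon gamma response genes, 6 of 18 MHC class I genes and 4 of 17 heat shock chaperones, with median log2 ratios of −1.14, −0.83 and −0.76 against −0.02 over all genes, and 7 of 11 neutrophil, erythroid and B cell genes. Igtp, an immunity-related GTPase induced by interferon (chr11:58199556-58207591, plus strand, GRCm38), stood at 66.4 CPM (55.1 to 79.4) in P301S hom and 368 CPM (350 to 387) in P301S neg, 5.54-fold lower (4.601 to 6.72). Ifi47, another such GTPase, stood at 38.4 and 211 CPM and Gbp4, a guanylate-binding protein, at 59.3 and 257 CPM in the same order. Hspa1a, the inducible Hsp70 chaperone, stood at 406 and 1348 CPM. Hspa1a and Hspa1b are near-identical copies, as are the class I genes H2-Q6 and H2-Q7, and the annotations of Igtp and Irgm2 overlap on the same strand, so counts within each pair are uncertain.

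These differences were smaller or turned round in female cells. There Igtp stood at 64.1 CPM in P301S hom and 60.3 CPM in P301S neg, and Gbp4 at 59.0 and 66.2 CPM. Ifi47 was still lower in P301S hom, at 37.7 CPM, against 72.1 CPM in P301S neg. Hspa1a stood at 394 and 207 CPM, so its ratio turned to a higher level in P301S hom. Of the interferon gamma response genes measured in female cells, 18 in all, none was past 2-fold (median log2 ratio 0.08), and none of 17 MHC class I genes (−0.21) or 17 heat shock chaperones (0.22) was. Over all cells of the pair, 0.706% of genes were at least 2-fold higher and 1.62% at least 2-fold lower. In lists of this size, none past 2-fold lies near such shares. The share over all genes in female cells alone is not given here.

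Within P301S neg, male cells were set against female cells, with 1497481 and 2023668 UMIs. Of 7324 genes measured, 123 (1.68%) were at least 2-fold higher in male cells and 128 (1.75%) at least 2-fold lower. Of 20 interferon gamma response genes, 19 were higher and none lower (median log2 ratio 2.11), of 17 heat shock chaperones 14 were higher (1.55) and of 18 MHC class I genes 10 were higher (1.13). Igtp stood at 688 CPM in male and 60.3 CPM in female cells, Gbp7 at 536 and 151 CPM, Gbp2 at 453 and 129 CPM, and Irgm2 at 186 and 29.6 CPM. H2-K1, a classical class I heavy chain, stood at 4470 and 1897 CPM and Hspa1a at 2753 and 207 CPM. Neutrophil, erythroid and B cell genes summed to 12944 CPM in male and 4582 CPM in female arterial cells, and their part in these ratios was not tested.

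The male cells of the other libraries were not high. Igtp stood at 55.6 CPM in the male cells of P301S hom CD8 KO and 87.3 CPM in those of 33-week P301S hom CD8 WT, and Hspa1a at 332 and 297 CPM. In 33-week P301S hom CD8 WT, 2 of 12 interferon gamma response genes were 2-fold higher in male than in female cells (median 0.43) beside 1.04% of 3952 genes, and none of 14 heat shock chaperones was. Within P301S neg the male excess was also seen in the other zones: 15 of 18 interferon gamma response genes were 2-fold higher in male capillary cells (median 1.54), where 1.69% of 5732 genes were higher and 1.80% lower, and 17 of 20 in male venous cells (1.26), where 1.16% of 8091 genes were higher and 2.09% lower. Male cells of the P301S neg genotype came from 1 mixed library only, so the individual animal cannot be told apart from its combination of sex and genotype.

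**Figure D4:**
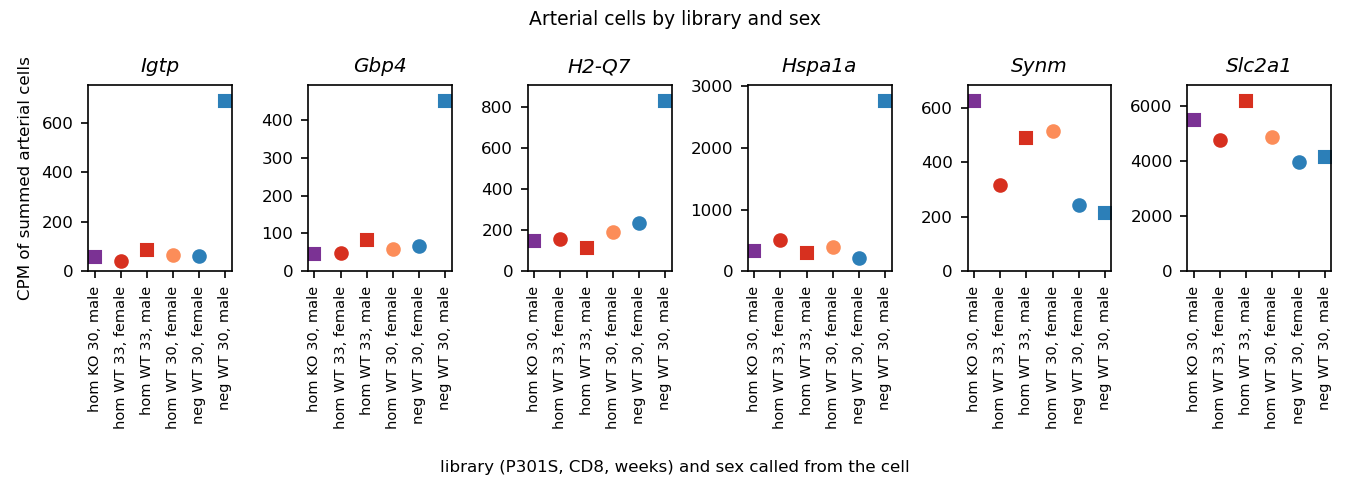
Level of 6 genes (vertical axes, CPM of the summed arterial cells) in the cells of each library called male or female. The male cells of P301S neg stood apart for Igtp (688 CPM), Gbp4, H2-Q7 and Hspa1a, and for Synm both sexes of P301S neg lay lowest, at 215 and 242 CPM.

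The promoters of these interferon genes are shown because the list holds many copies of 1 element, the interferon-stimulated response element, searched as GAAA, any 2 bases and GAAA on both strands (TTTC, 2 bases and TTTC as printed on the other), overlapping matches included. It lay in the 250 bases before the start in 2.58% of 10222 RefSeq promoters (GRCm38.p6) of the genes tested, and in 10 of 18 promoters of the interferon gamma response list, which come from 16 genes. Capitals mark the fixed letters of the match, whose first base, counted from the start, lies at −34 in Igtp, −64 in Irgm2, −59 in Gbp2 and −53 in Gbp7. Igtp lies at chr11:58199306-58199555, Irgm2 at chr11:58214727-58214976, Gbp2 at chr3:142620413-142620662 and Gbp7 at chr3:142530086-142530335, all on the plus strand.
Igtp: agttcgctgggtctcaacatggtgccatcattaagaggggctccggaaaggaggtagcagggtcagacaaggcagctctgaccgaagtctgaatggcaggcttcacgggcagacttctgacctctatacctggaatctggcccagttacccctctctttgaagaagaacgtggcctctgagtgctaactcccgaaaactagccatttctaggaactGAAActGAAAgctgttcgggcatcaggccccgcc
Irgm2: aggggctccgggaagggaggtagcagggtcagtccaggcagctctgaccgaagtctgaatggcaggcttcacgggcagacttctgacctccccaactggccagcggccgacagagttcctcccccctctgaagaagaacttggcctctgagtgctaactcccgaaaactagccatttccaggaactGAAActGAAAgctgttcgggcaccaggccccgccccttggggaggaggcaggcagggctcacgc
Gbp2: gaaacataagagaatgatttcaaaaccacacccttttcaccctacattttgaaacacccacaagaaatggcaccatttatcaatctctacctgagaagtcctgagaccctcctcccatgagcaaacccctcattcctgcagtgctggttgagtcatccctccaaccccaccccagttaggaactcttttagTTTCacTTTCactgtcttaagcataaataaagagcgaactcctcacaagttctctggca
Gbp7: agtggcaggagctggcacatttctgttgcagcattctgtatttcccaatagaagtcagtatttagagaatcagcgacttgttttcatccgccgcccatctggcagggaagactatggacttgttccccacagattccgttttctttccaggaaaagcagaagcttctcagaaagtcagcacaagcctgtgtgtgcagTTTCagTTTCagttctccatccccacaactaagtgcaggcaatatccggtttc
The windows of Igtp and Irgm2, neighbouring genes, share an unbroken run of 55 bases, so they are not independent copies. The matches describe these windows and do not show binding. The heat shock element, searched as GAA, TTC and GAA with any 2 bases between each on both strands, lay in 0.411% of all promoters and in 2 of 20 promoters of heat shock chaperones, those of Hspd1 and Hspe1, whose windows overlap on opposite strands and hold the same matches. The core letters bound by the Notch factor RBPJ, TGGGAA on either strand, lay in 20.4% of promoters of genes at least 2-fold higher in arterial than in capillary cells and in 20.05% of all promoters.

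Genes higher in P301S hom than in P301S neg were led by other functions, and Synm, Tmcc3, Mt1 and Mt2 were higher within female cells too. Synm, the intermediate filament protein synemin, stood at 515 CPM (483 to 549) in P301S hom and 226 CPM (211 to 241) in P301S neg, 2.28-fold higher (2.08 to 2.504). In female cells it stood at 516 and 242 CPM, and the male cells of the 2 other P301S hom libraries, at 624 CPM in CD8 KO and 490 CPM at 33 weeks, were above the 215 CPM of P301S neg males. Tmcc3, an endoplasmic reticulum protein, stood at 319 and 117 CPM in all cells and 322 and 151 CPM in female cells. In P301S hom CD8 WT at 33 weeks, however, Tmcc3 stood at only 151 CPM. The metallothioneins Mt1 and Mt2, which bind zinc and copper, stood at 909 and 425 CPM and at 232 and 85.7 CPM, and in female cells at 886 and 422 CPM and 229 and 93.9 CPM.

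Plaur, the urokinase receptor, stood at 266 CPM in P301S hom and 111 CPM in P301S neg, Gstp1, a glutathione transferase, at 67.0 and 24.4 CPM, and Adamts9, a matrix protease, at 73.0 and 27.3 CPM. Ctla2a, a protease inhibitor, stood at 1119 and 514 CPM. Cytl1, a secreted cytokine-like protein of arteries, stood at 80.7 and 25.1 CPM, but in P301S hom its UMIs came from 11 cells, and 40.1% of them from a single cell. Lower in P301S hom within female cells too were Hrct1, at 57.3 CPM in P301S hom and 177 CPM in P301S neg, and Tgfb2, a transforming growth factor of vessel walls, at 119 and 406 CPM. The arterial list itself was almost even, with 1 of 27 genes 2-fold higher (Cytl1), 1 lower (Tgfb2) and a median log2 ratio of −0.07.

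The library labelled P301S hom CD8 KO was set against 30-week P301S hom CD8 WT, a comparison of the CD8 genotype in which the sex of the cells also differs. Cd8a, the alpha chain of CD8 (chr6:71373427-71379173, plus strand, GRCm38), had 247 UMIs in arterial cells of the library labelled CD8 KO, 127 CPM (112 to 144), in 126 of 226 cells (55.8%). It had no UMI in the 174, 195 and 411 arterial cells of the 3 CD8 WT libraries, where 3 counts would be 2.03, 1.65 and 0.732 CPM, so it was at least 77.3-fold higher than in 30-week P301S hom CD8 WT. In the library labelled CD8 KO, Cd8a stood at 112 CPM in capillary and 123 CPM in venous cells, and it had no UMI in those zones of the CD8 WT libraries. The T cell genes Cd3e, Cd3d, Cd3g, Trac and Cd8b1 were at 0 in arterial cells labelled CD8 KO, so that Cd8a made up 127 of the 130 CPM of the T cell list. Counts of 3' ends do not show whether such a message encodes a protein, so these counts cannot show whether the label holds.

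Beside Cd8a the arterial cells of these 2 libraries differed in few genes: of 7354 measured, 22 (0.299%) were at least 2-fold higher in the library labelled CD8 KO and 27 (0.367%) at least 2-fold lower, or 15 lower with the highest cell of each gene left out. Hrct1 stood at 114 CPM in the library labelled CD8 KO and 56.6 CPM in CD8 WT, 2.02-fold higher (1.59 to 2.58). Bok, a BCL2-family member, stood at 76.3 and 42.3 CPM, Uchl1, a ubiquitin hydrolase, at 73.7 and 41.2 CPM, and Ide, the insulin-degrading enzyme, at 58.8 and 31.9 CPM; Rtca, Abi3 and Ercc1 stood 1.94-, 1.92- and 1.74-fold higher. Since the library labelled CD8 KO held male and CD8 WT female cells, male cells of 33-week P301S hom CD8 WT were also used: against them Hrct1 stood at 112 CPM in the library labelled CD8 KO and 120 CPM in CD8 WT, and Bok at 78.5 and 34.0 CPM. Age differs in that comparison.

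Lower in the library labelled CD8 KO were Lypd1, at 46.9 CPM in CD8 KO and 89.0 CPM in CD8 WT, and in male cells 40.6 and 91.7 CPM, and Lrrc32, a receptor for latent transforming growth factor beta, at 95.9 and 180 CPM, which in male cells stood at 91.6 and 42.9 CPM. Psmb9, an immunoproteasome subunit, stood at 76.3 and 135 CPM, and the X-linked helicase gene Ddx3x at 268 and 457 CPM. Levels of Psmb9 and Ddx3x in male cells alone are not given here. For both genes, sex and CD8 genotype cannot be told apart. Fabp4 (2.58 and 132 CPM), Tmcc2 (40.7 and 85.1 CPM) and Car2 (54.1 and 97.7 CPM) were also among the 8 lowest. In CD8 WT the highest cell of each gene held 220 of 240 Fabp4, 53 of 155 Tmcc2 and 48 of 178 Car2 UMIs. In male cells Tmcc2 stood at 39.9 and 19.2 CPM and Car2 at 53.7 and 47.3 CPM, so both turned to higher levels in CD8 KO, and without called doublets their log2 ratios were 0.18 and 0.16. No member of the Notch, vasomotor, shear stress or barrier lists was past 2-fold, with list medians of 0.02, 0.07, −0.03 and 0.03, against −0.01 over all genes, and none of 16 interferon gamma response genes was (−0.24).

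The P301S hom CD8 WT libraries at 33 and 30 weeks differ in age and in the sex of their cells. Of 7036 genes, 47 (0.668%) were at least 2-fold higher and 38 (0.540%) at least 2-fold lower at 33 weeks, or 29 higher with the highest cell of each gene left out. Several of the highest were signals of single cells: all 294 UMIs of Elane and all 97 of Ctsg, proteases of neutrophil precursors, lay in 1 cell at 33 weeks, and the highest cell of each gene held 99.1% of Mpo, 98.7% of Prtn3 and 98.9% of Fabp4 UMIs. For the astrocyte gene Gfap it held 53.1%. Fam71a was spread over cells, at 57.4 CPM in 42 cells at 33 weeks and 23.1 CPM in 33 cells at 30 weeks, 2.49-fold higher (1.70 to 3.70).

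Among the genes lower at 33 weeks, Asb4, a ubiquitin ligase subunit of vascular cells, stood at 113 CPM at 33 weeks and 245 CPM at 30 weeks, Tmcc3 at 151 and 319 CPM, and Rsad2, the antiviral enzyme viperin, at 75.0 and 163 CPM. Ifit3, an interferon-induced antiviral protein, stood at 26.4 and 57.7 CPM, and Ivns1abp at 65.6 and 135 CPM. Tmcc2 (39.9 and 85.1 CPM) was also among the 8 lowest, but 53 of its 155 UMIs at 30 weeks lay in 1 cell, and without called doublets its log2 ratio was 0.15. Of 19 type I interferon genes, 3 were 2-fold lower and none higher (median log2 ratio −0.35; in female cells alone, −0.55). Lrrc32 stood at 91.9 and 180 CPM in all cells but at 179 CPM at both ages in female cells. Both this comparison and the 2 before it use the P301S hom CD8 WT library at 30 weeks, so the ratios are not independent of each other.

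**Figure D5:**
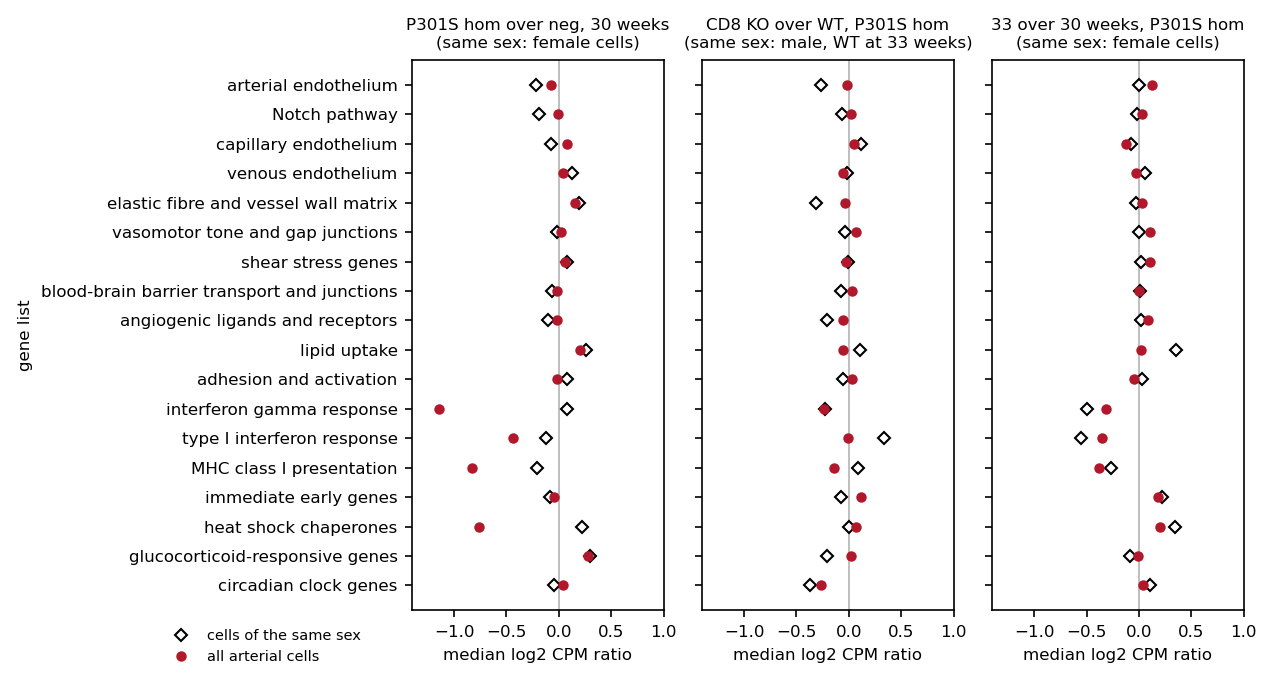
Median log2 ratio of CPM (horizontal axes) for each gene list (rows) in arterial cells, for P301S hom over neg, CD8 KO (as labelled) over CD8 WT and 33 over 30 weeks; diamonds use cells of the same sex. In the first panel the interferon gamma list lay at −1.14 for all cells and at 0.08 for female cells.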

How the data were processed

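Per the file headers, the authors deposited raw UMI counts, by gene and barcode, from Cell Ranger 6.0.1, and per the submitters' processing notes the genome was mm10; the annotation they counted on is not given in the sources used here. The 4 count tables held 5107 to 6433 barcodes and 36331214 to 43531426 UMIs per library, and 5 to 12 barcodes were shared by each pair of libraries. Called doublets (scanpy 1.11.5, scrublet, expected rate 6%) were kept, 2, 2, 3 and 12 of the arterial cells in the order of the report. Positions are from GENCODE M21 (GRCm38) and promoters from RefSeq.

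UMIs were summed per library and zone. Zones were tested with edgeR 4.0.16 (R 4.3.3, limma 3.58.1) with the library as a block, since the zones of a library come from the same 2 mice; the 19 genes of the rule were left out. Ratios between libraries are CPM ratios with exact conditional-binomial intervals, and shares have Clopper-Pearson intervals, all for counting error only. Genes named were the 12 highest and 12 lowest log2 differences from capillary cells and the 8 highest and 8 lowest from venous cells, past adjusted p 0.05 with at least 50 CPM and the same direction in all 4 libraries, and the 8 highest and 8 lowest ratios per library comparison with 10 CPM added, at least 50 UMIs in the pair and 50 CPM in the higher. Mitochondrial, ribosomal, haemoglobin, receptor segment, predicted and sex-linked marker genes were left out, as were genes over 3 times higher in non-endothelial cells. Some genes selected by this rule are not reported here. Up to 4 members per list were also to be named; other members, including Mt1, Tgfb2, Irgm2, Gbp2, Gbp7 and the Fabp4 companions, were chosen after their values were seen. The members and lists were chosen with earlier results of these data known. Alternatives were DESeq2 1.42.0, no block, other cell thresholds and filters, TMM scaling, thinning, cells of 1 sex and leaving out libraries or cells; leaving out each gene's highest cell or the Fabp4 cells, and counting intermediate cells as capillary, were chosen after seeing the data. The tests and ratios were tested on simulated data. Scripts ran on Python 3.11.15 with matplotlib 3.10.9, pandas 2.3.3, scipy 1.17.1 and numpy 2.4.6.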

Additional observations from a re-analysis of the deposited data

Results flagged for a closer look

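For 3 genes the ratio of 33-week P301S hom CD8 WT to 30-week P301S neg ran in opposite directions in female and male arterial cells by at least 2-fold each, among genes with at least 50 UMIs per sex and 5 in each of the 4 sums; it is the only pair of libraries in which both sexes were measured. Hsph1, a co-chaperone of Hsp70, had a log2 ratio of 2.09 in female cells and −2.17 in male cells, and Hspa1a had 1.31 and −3.21. Tmcc2 had 1.09 in female cells and −1.64 in male cells. Outside those limits Fabp4, whose UMIs lay in few cells, stood at 867 CPM in P301S hom and 9.88 CPM in P301S neg in female cells, and at 1.48 and 251 CPM in male cells. Lrrc32 stood at 179 and 91.9 CPM in female and 42.9 and 127 CPM in male cells, and Hspa1b at 23.1 and 16.8 CPM and at 10.4 and 198 CPM. How many genes met those limits is not given here, so the 3 genes cannot be read as a share. Hsph1 and Hspa1a are heat shock chaperones, a list that stood high in the male cells of P301S neg. The difference between the sexes was not tested, since each value comes from 1 library per group, and the ages differ.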

How the results depend on the processing

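All 456 values of the named zone genes under the alternatives kept their direction and stayed past the threshold. Against capillary cells, DESeq2 called 540 higher and 404 lower, and the fit with no library block 579 and 385; against venous cells DESeq2 called 768 and 716. Leaving out each library gave 650 to 836 higher and 538 to 649 lower against capillary cells, and 948 to 1111 and 878 to 1114 against venous cells. No paired analysis was possible for the library comparisons because each group is 1 library. In the order of the report, arterial shares were 22.2%, 22.1%, 25.2% and 28.0% at 2 or more arterial UMIs, 11.7%, 9.90%, 13.1% and 15.8% at 5 or more, 7.72%, 5.52%, 6.96% and 10.3% after thinning, and without the mural limit 20.3%, 20.3% and 28.5% in P301S hom CD8 KO, 33-week P301S hom CD8 WT and P301S neg. With a minimum of 20 UMIs, 145 genes were 2-fold higher and 337 lower in P301S hom than neg, 108 and 163 in CD8 KO than WT, and 162 and 158 at 33 than 30 weeks. Without each gene's highest cell, 39 were higher in P301S hom, 15 lower in CD8 KO and 29 higher at 33 weeks. Male cells alone gave 59 higher and 41 lower in CD8 KO, against the older CD8 WT library, and female cells alone 30 and 93 at 33 weeks. Of the values of named genes in the library comparisons, 303 kept their size within counting error, 35 moved and 22 changed sign. In female cells P301S hom over neg turned to log2 ratios of 0.088 for Igtp, 0.51 for Hsph1, 0.23 for Hspa1b and 0.93 for Hspa1a. For CD8 KO over WT, male cells gave −0.10 for Hrct1, 1.05 for Tmcc2, 1.09 for Lrrc32 and 0.18 for Car2, leaving out the cells with 5 or more Fabp4 UMIs gave 2.21 for Fabp4, and leaving out called doublets 0.18 for Tmcc2 and 0.16 for Car2. For 33 over 30 weeks, 5 or more arterial UMIs gave −5.52 for Elane, −0.61 for Mpo, −4.07 for Ctsg, −5.82 for Prtn3 and −1.61 for Fabp4, and leaving out the highest cell −3.02 for Elane, −1.70 for Ctsg and −1.70 for Fabp4. Female cells gave −0.50 for Gfap and 0.00045 for Lrrc32, and leaving out called doublets 0.15 for Tmcc2. The cause was not tested. Depth limits low genes: in 33-week P301S hom CD8 WT, 3 counts are 2.03 CPM.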
